A study of Nasturtium officinale with 24 samples.

Results

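The subject is a set of 27 transcript contigs of watercress (Nasturtium officinale) that were nearly without reads in plants kept in air and had reads in every group of plants kept under water. They were selected on their own levels in the same 24 libraries, out of 80741 contigs, so the values that chose them were the means of the 8 groups. CPM is the estimated count of a contig divided by the total of its library and multiplied by 1000000. A contig was taken when its mean was under 0.2 CPM in all 4 air groups and at least 1 CPM in all 4 submerged groups, with a mean over the 8 groups under 4 CPM. The last condition only took the number from 30 to 27, and the set holds contigs of low level. No cap on the number was needed.

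The groups were stems under water for 2 days, stems under water for 1 day, petioles (leaf stalks) under water for 2 days and petioles under water for 1 day, and the same 4 kinds of sample kept in air in like tubs. Each group had 3 libraries, 24 in all, and each library came from a pool of 5 plants about 3 weeks old. Growth was in short days (8 h light, 16 h dark) at 23 °C, and submerged plants were wholly covered by water. No genotype is given beyond the species, and nothing says whether a stem pool and a petiole pool with the same replicate number share plants. The labels do not say that the 3 replicates were grown as separate batches either, so p-values measure only the spread between these pools. Totals ran from 17617430 to 48928331 estimated counts per library, so that 3 counts were worth 0.0613 to 0.17 CPM. Intervals of counting error are thus wide in air, where most members had a few counts at best.

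Watercress is a semi-aquatic relative of cabbage and Arabidopsis. When a shoot is submerged, gas exchange slows, the gaseous hormone ethylene collects in the tissue and oxygen can run short, and in plants at large these signals switch on genes of fermentation, sugar use and growth. In semi-aquatic species some organs elongate under water, which can bring leaves back to the surface. The files give each contig an accession number and a length and no gene name, so nothing is said here about the function of any member. Marker genes of the tissues could not be looked up for the same reason, and the tissue of each library is as labelled. In whole organs, fewer cells of a type and less RNA per cell cannot be told apart.

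Levels in air were low and, for most members, above 0. A count here means an estimated count that rounds to at least 1. In air, 2 of the 27 members had no count in any of the 12 libraries. At least 1 count in all 12 was found for 4 members, and 19 had a count in at least 6. For the 2 without a count, counting error alone would allow up to the level of 3 counts in each library. Both had estimated counts that were not whole in at least 1 library, which points to reads divided among contigs. Their 0 is then an estimate, and the limit of 3 counts may not hold for them. A single air library held a count for 11 to 21 members. In stems in air 53 of 162 values (32.7%) rounded to a count of 0, of which 46 were exactly 0. In petioles in air 89 of 162 values (54.9%) rounded to 0, of which 83 were exactly 0, and the difference between the tissues was not tested. Under water, 10 of the 12 libraries had counts for all 27 members and the other 2 had counts for 26.

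Summed over the members, libraries of stems under water at 2 days held 61.7, 87.9 and 71.7 CPM, against 2.24, 2.63 and 2.31 CPM in stems in air. Stems under water at 1 day held 78.7, 73.9 and 86.5 CPM, against 1.58, 2.46 and 1.99 CPM in air. Petioles under water held 158, 194 and 137 CPM at 2 days, against 1.39, 1.38 and 1.23 CPM in air. The same sums were 109, 119 and 138 CPM in petioles under water at 1 day, against 1.48, 1.32 and 2.06 CPM in petioles in air. These differences between water and air are what the rule selected, so they describe the set and support nothing. In the common fit described below, edgeR called 26 members higher under water in stems at 2 days, 27 in stems at 1 day, 27 in petioles at 2 days and 26 in petioles at 1 day. The shares of all tested contigs called higher were 10.4%, 9.99%, 16.3% and 13.5% in the same comparisons. The rule selected for these calls as well, so setting them beside the shares is no test of the members.

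**Figure D1:**
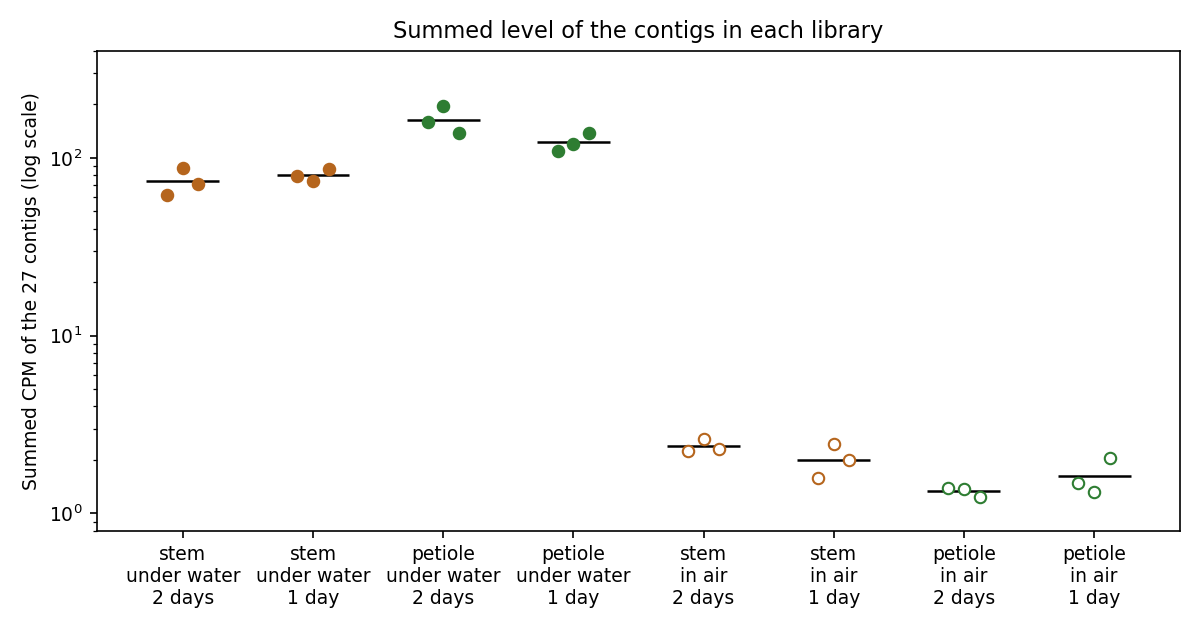
Summed CPM of the 27 contigs (log scale) in each library, with filled points for libraries from under water, open points for libraries from air, brown for stems, green for petioles and a line at the mean of 3 libraries. Submerged stems lie between 61.7 and 87.9 CPM and submerged petioles between 109 and 194 CPM, and no air library exceeds 2.63 CPM.

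The sum was spread over the set. The member with the highest level held 6.85% of the summed level under water and the highest 3 held 19.9%. Members ranged from 218 to 4837 bases, with a median of 731 against 697 for all contigs. Of the 27, 10 were shorter than 500 bases and 6 longer than 2000. On the deposited TPM scale, which corrects for length, mean levels under water ran from 0.392 to 74.3 TPM with a median of 4.50 TPM, and 7 members reached 10 TPM. The highest TPM belonged to the shortest member. Mean levels in air had a median of 0.0678 TPM and a highest value of 1.43 TPM.

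GEMC01071326.1 (218 bases) and GEMC01045676.1 (1300 bases) had the highest level in their lowest submerged group. GEMC01071326.1 stood at 4.59, 5.24 and 4.36 CPM in stems and 6.20, 12.9 and 6.52 CPM in petioles after 2 days under water. After 1 day it stood at 4.48, 2.50 and 6.37 CPM in stems and 10.1, 7.79 and 10.045 CPM in petioles. Its highest air library had 0.332 CPM. On both days its stem libraries lay below its petiole libraries, with log2 differences of -1.04 ± 0.46 at 2 days and -1.13 ± 0.46 at 1 day (SE), and neither passed the test (edgeR quasi-likelihood test, Benjamini-Hochberg adjusted p = 0.13 on both days).

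GEMC01045676.1 stood at 4.66, 5.76 and 4.02 CPM in stems and 10.2, 8.77 and 6.13 CPM in petioles at 2 days. After 1 day it stood at 3.37, 4.82 and 3.46 CPM in stems and 6.94, 7.34 and 7.14 CPM in petioles. Again no stem library reached a petiole library, and the test was not passed (log2 difference -0.97 ± 0.41 at 2 days, edgeR adjusted p = 0.11, and -0.93 ± 0.41 at 1 day, edgeR adjusted p = 0.18). Both contigs passed under DESeq2, with which the tissue difference of GEMC01045676.1 had adjusted p = 0.0037 at 2 days.

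At the edges of the rule, members with the highest mean over the 8 groups had 3.81, 3.78 and 3.45 CPM, and the 3 contigs kept out by that bound alone had 4.17, 4.42 and 5.63 CPM. The members with the weakest lowest submerged group had 1.02, 1.02 and 1.01 CPM there, and the nearest contigs outside had 0.939, 0.927 and 0.918 CPM. In air the highest group means inside were 0.197, 0.188 and 0.187 CPM, and the lowest outside were 0.225, 0.225 and 0.236 CPM. The reverse pattern, under 0.2 CPM in all submerged groups and at least 1 CPM in all air groups with the same bound on the mean, was met by 19 contigs. A wider circle of 239 contigs was under 0.2 CPM in all air groups and reached 1 CPM in at least 1 submerged group. Of the contigs this low in air, 41 reached 1 CPM in both submerged stem groups and 94 in both submerged petiole groups.

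The rule was also applied to 2 of the 3 replicate numbers, so that the third gave values the choice had not used. With replicate 1 kept aside, 25 contigs were chosen and 22 of them had all 4 submerged libraries of that number above all 4 air libraries. With replicate 2 kept aside the count was 25 of 26, and with replicate 3 it was 24 of 25. Of all contigs 7.23%, 8.62% and 7.81% did so in replicates 1, 2 and 3. The thresholds themselves held less often. In the libraries kept aside, 11, 11 and 12 of these contigs were at once under 0.2 CPM in all 4 air libraries and at least 1 CPM in all 4 submerged ones. The median level there was 2.28, 3.04 and 2.60 CPM under water, against 0.009, 0.065 and 0.023 CPM in air. Single values reached 1.47 CPM in air and 0 CPM under water. Of the contigs so chosen, 18, 20 and 21 were among the 27 members.

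GEMC01039250.1 (4837 bases), picked here after its values were seen, shows how far libraries of 1 group could differ. It stood at 0, 2.71 and 4.42 CPM in stems and 6.58, 4.43 and 0 CPM in petioles after 2 days under water. After 1 day it stood at 0.415, 0.112 and 4.08 CPM in stems and 3.11, 2.29 and 0.48 CPM in petioles. It is the only member with submerged libraries that did not all lie above all its air libraries. In the other 26 every submerged library exceeded every air library, as the rule favours.

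Whether the members differed between the tissues under water was not part of the rule, though the rule set a floor of 1 CPM in each submerged group and so limits how low either tissue can be. The test compared stems with petioles on each day, in 1 edgeR fit over all 24 libraries and 53919 tested contigs, with p-values adjusted over all of them and a call at an adjusted p under 0.05. All 27 members were among the contigs tested, having passed the filter on low counts through their submerged groups. At 2 days 9 members were lower in stems than in petioles and 1 was higher, against 9.43% and 9.3% of all tested contigs and 18.7% in either direction. At 1 day 6 were lower in stems and 1 was higher, against 6.34% and 4.56% of all tested contigs and 10.9% in either direction.

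As shares of the 27 members, the lower ones made up 33.3% at 2 days and 22.2% at 1 day. The fitted log2 difference, stem minus petiole, was negative for 26 members at 2 days and for 22 at 1 day. It was negative for 49.9% and 51% of all tested contigs. The members' median was -1.22 at 2 days and -0.72 at 1 day, beside 0.00 and -0.01 over all tested contigs. The other 2832 contigs called higher under water in all 4 comparisons with air also leaned this way. Among them 31.3% at 2 days and 15.8% at 1 day were called lower in stems, with medians of -0.40 and -0.19. The difference was negative for 78.8% and 65.9% of them. The difference between the 27 members and these contigs was not tested.

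The values by library show the same lean. At 2 days all 3 stem libraries lay below all 3 petiole libraries for 15 members and above them for 1, where 13.7% and 26.6% of all tested contigs did so. At 1 day the numbers were 13 below and 3 above, against 14.4% and 14.5% of all tested contigs. Petioles at 2 days were the highest of the 4 submerged groups for 20 of the 27 members. Stems at 1 day were the lowest group for 16 members and stems at 2 days for 8. The order of the groups was not counted over all tested contigs, so these 3 numbers are descriptions only. In air the mean of the sums was higher in stems, with 2.40 ± 0.208 CPM in stems and 1.33 ± 0.089 CPM in petioles at 2 days and 2.01 ± 0.440 CPM in stems and 1.62 ± 0.390 CPM in petioles at 1 day (SD, n = 3). The air libraries of the tissues did not overlap at 2 days and overlapped at 1 day, at levels of 22 to 102 estimated counts per library over the whole set.

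**Figure D2:**
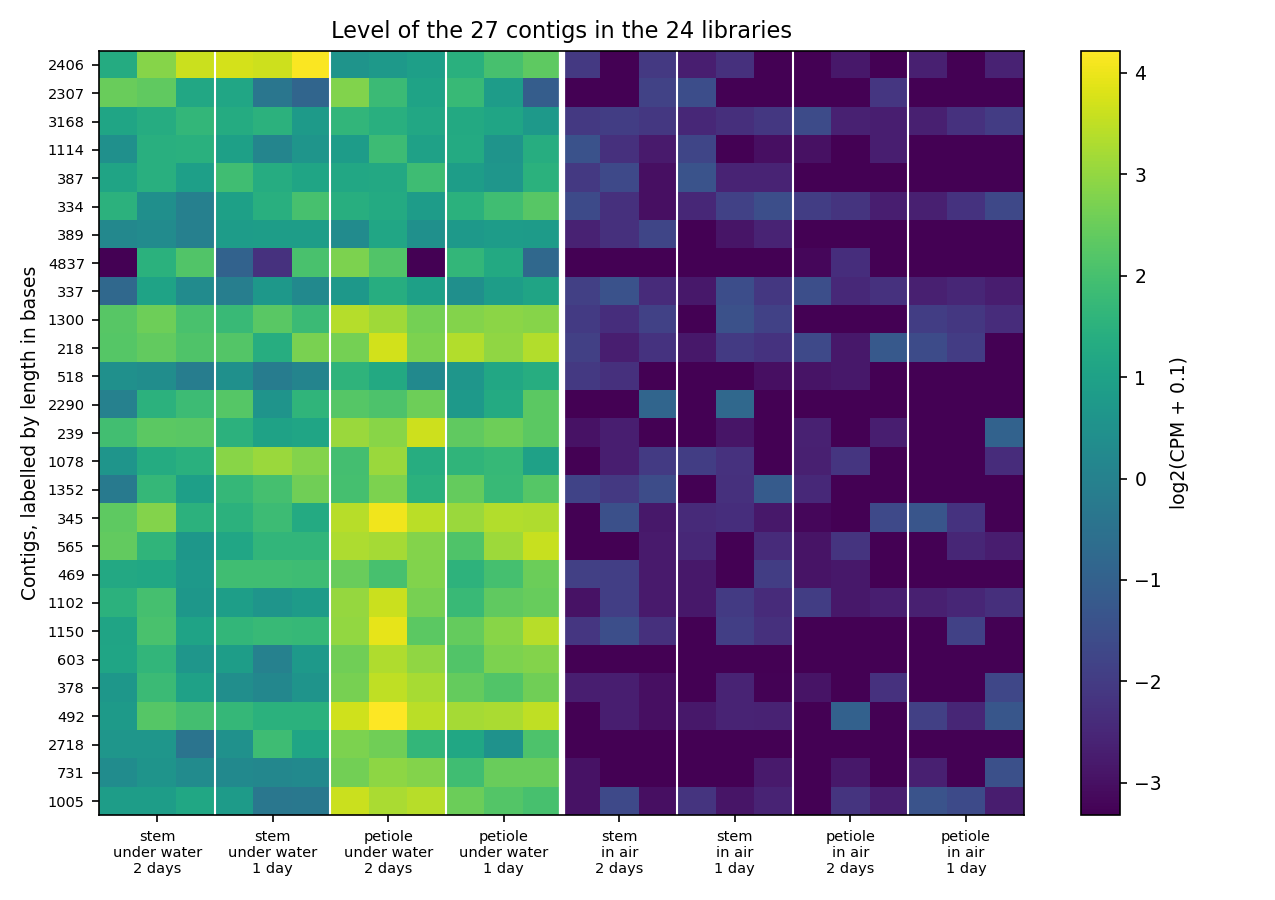
Level of the 27 contigs, one per row and labelled by length, as log2(CPM + 0.1) in the 24 libraries, with the 12 libraries from under water on the left and the 12 from air on the right, 3 per group. Rows run from the contig with the most positive stem minus petiole difference at 2 days under water (top, 2406 bases) to the most negative (bottom, 1005 bases), and petioles at 2 days hold the highest group mean for 20 contigs.

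The 6 members called lower in stems at 1 day were all among the 9 called lower at 2 days. They make up 100% of the first list and 66.7% of the second. The days come from different libraries, but 1 fit gave each contig 1 estimate of spread for both days. Over all tested contigs, 10.9% were called at 1 day, 18.7% at 2 days and 21.6% on either day, in either direction. Many calls thus recurred among all contigs as well. Of the 6 members, 4 have neighbouring accession numbers and may not be separate observations. The strongest difference at 2 days was that of GEMC01029370.1 (1005 bases), with 1.73, 1.74 and 2.17 CPM in stems and 12.1, 9.40 and 10.6 CPM in petioles. At 1 day it had 1.66, 0.697 and 0.704 CPM in stems and 5.61, 4.45 and 3.97 CPM in petioles. Stem and petiole libraries were far apart on both days, and its highest air library had 0.284 CPM. The log2 difference was -2.67 ± 0.53 at 2 days (SE; edgeR, adjusted p = 0.0018) and -2.21 ± 0.53 at 1 day (edgeR, adjusted p = 0.0096). With 1 of the 6 libraries left out in turn, the call held in all 6 fits at 2 days and in 4 of 6 at 1 day.

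GEMC01026376.1 (731 bases) was next, with 1.17, 1.38 and 1.16 CPM in stems and 5.99, 7.53 and 6.92 CPM in petioles at 2 days. The values at 1 day were 1.1, 1.01 and 1.09 CPM in stems and 3.62, 5.53 and 5.49 CPM in petioles. Its stem libraries all lay just above the floor of the rule on both days. The log2 difference was -2.63 ± 0.58 at 2 days (edgeR, adjusted p = 0.0036) and -2.25 ± 0.57 at 1 day (edgeR, adjusted p = 0.014). The call at 2 days held in all 6 fits with a library left out and the call at 1 day in 1 of 6, with log2 differences from -2.45 to -2.11.

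GEMC01035728.1 (2406 bases) was the member called higher in stems on both days. It stood at 2.41, 7.09 and 12.2 CPM in stems and 1.39, 1.59 and 1.83 CPM in petioles at 2 days. Stems at 1 day had 13.3, 12.5 and 18.0 CPM, and petioles had 2.64, 3.95 and 5.03 CPM. Every stem library was above every petiole library on both days, with a wide spread in stems at 2 days. The log2 difference was 2.02 ± 0.56 at 2 days (edgeR, adjusted p = 0.017) and 1.84 ± 0.55 at 1 day (edgeR, adjusted p = 0.036). The call at 1 day ended without any 1 of the 6 libraries (adjusted p between 0.057 and 0.13), while the difference stayed between 1.59 and 2.13. The call at 2 days ended without replicate 3 of stems (log2 difference 1.39, edgeR adjusted p = 0.13). It also ended without replicate 1 of petioles (1.91, edgeR adjusted p = 0.064) and without replicate 2 of petioles (2.05, edgeR adjusted p = 0.054), where the difference stayed about as large.

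**Figure D3:**
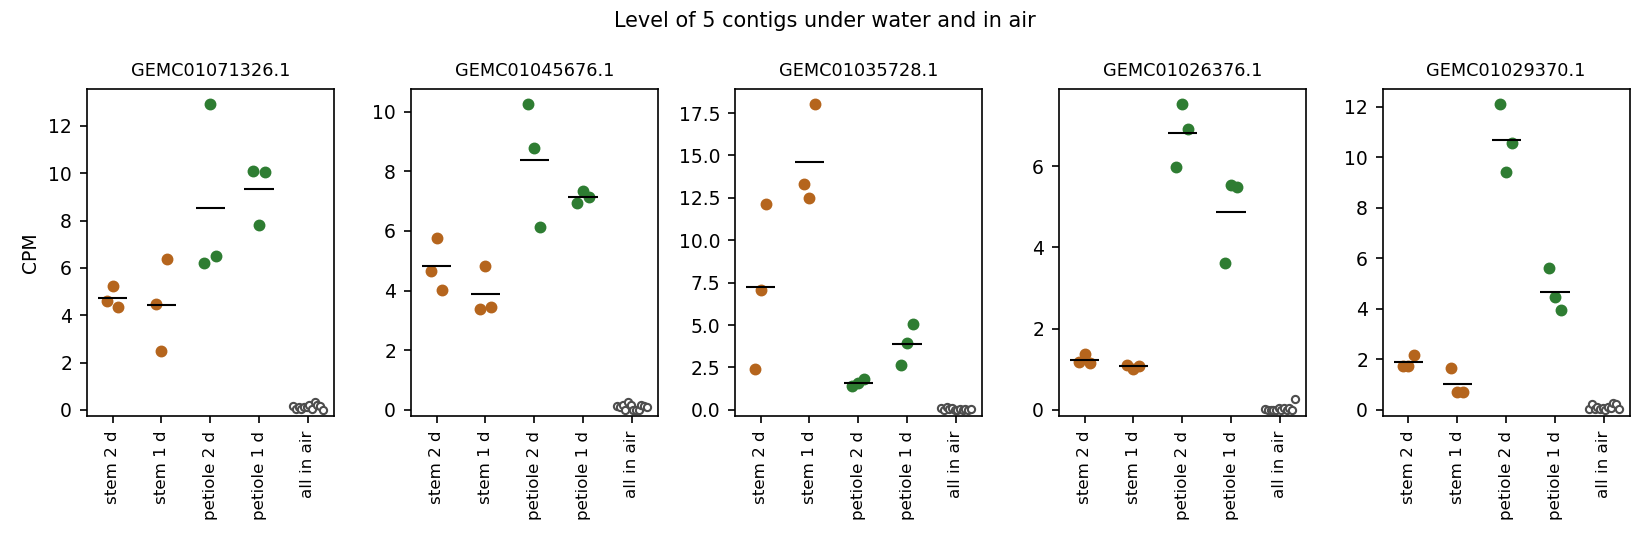
CPM of 5 contigs in each library from under water (brown for stems, green for petioles, line at the mean of 3 libraries) and in all 12 libraries from air (open points). GEMC01035728.1 is higher in stems, between 2.41 and 18.0 CPM, and the other 4 have all stem libraries below all petiole libraries on both days, with GEMC01026376.1 between 1.01 and 1.38 CPM in stems.

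The calls lean on a run of neighbouring accession numbers. GEMC01026371.1, GEMC01026372.1, GEMC01026373.1 and GEMC01026376.1, of 492, 603, 378 and 731 bases, were the only members within 3 numbers of another member, and they were grouped after their values were seen. All 4 were called lower in stems on both days, with log2 differences from -2.63 to -2.03 at 2 days and from -2.25 to -1.86 at 1 day. What the order of the numbers means is not given in the sources used here, and contigs of 1 gene can stand side by side in an assembly, so these 4 may not be separate observations. Of the other 23 members, 5 (21.7%) were called lower in stems at 2 days and 2 (8.7%) at 1 day, the last share being close to the 6.34% of all tested contigs. Their median log2 difference was -1.11 at 2 days and -0.60 at 1 day, and it was negative for 22 and 18 of them.

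GEMC01026372.1, from this run, was at 0 counts in all 12 air libraries. Under water it stood at 2.07, 3.01 and 1.47 CPM in stems and 5.90, 9.97 and 7.75 CPM in petioles at 2 days, a log2 difference of -2.03 ± 0.39 (edgeR, adjusted p = 0.0044). At 1 day it stood at 1.74, 0.898 and 1.60 CPM in stems and 4.37, 6.50 and 6.96 CPM in petioles, a log2 difference of -2.13 ± 0.39 (edgeR, adjusted p = 0.005). Both calls held with any 1 library left out. No other member was called on both days in every such fit.

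Of the remaining called members, GEMC01024611.1 (1102 bases) was lower in stems on both days. It stood at 2.78, 3.86 and 1.5 CPM in stems and 8.06, 12.1 and 6.32 CPM in petioles at 2 days, with log2 differences of -1.89 ± 0.42 at 2 days (edgeR, adjusted p = 0.0043) and -1.58 ± 0.42 at 1 day (edgeR, adjusted p = 0.02). GEMC01022793.1 (2718 bases), GEMC01031442.1 (1150 bases) and GEMC01076236.1 (469 bases) were called at 2 days alone, with log2 differences of -2.30 ± 0.57, -2.0 ± 0.60 and -1.60 ± 0.50 and edgeR adjusted p = 0.016, 0.028 and 0.033. At 1 day these 3 had -0.24 ± 0.54, -1.35 ± 0.59 and -0.25 ± 0.48 (edgeR, adjusted p = 0.86, 0.17 and 0.83). These names, too, fall outside the naming rule and are given because the list is short. A difference between the days in these contigs was not shown, since no member passed the test of the tissue by day interaction. The 17 members called on neither day had log2 differences between -1.78 and 1.44, and 9 of them were within 1 log2 unit of 0 on both days.

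**Figure D4:**
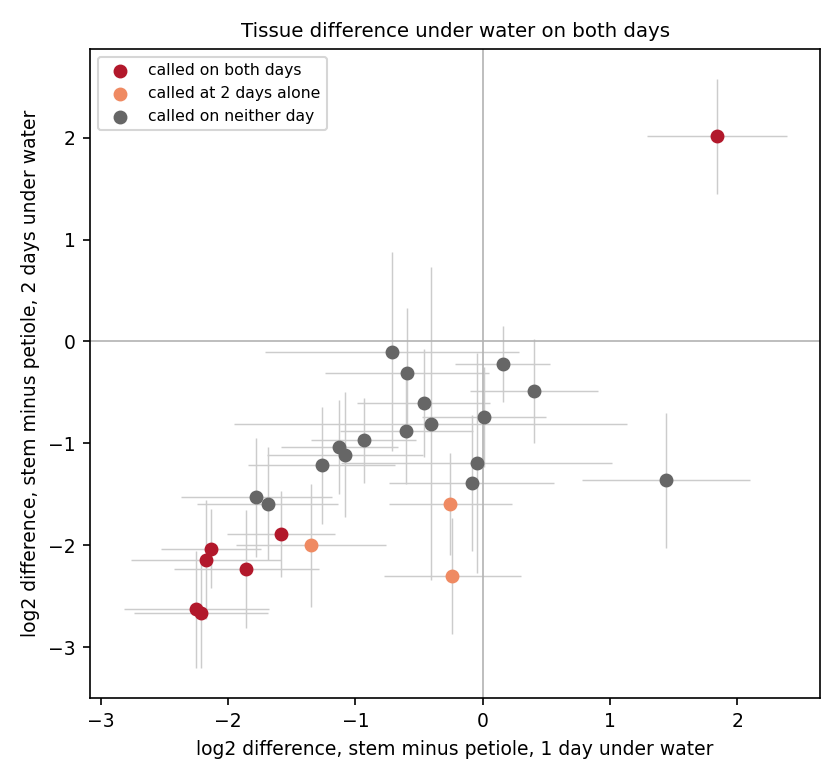
Fitted log2 difference, stem minus petiole, of the 27 contigs after 2 days under water (y axis) and after 1 day (x axis), with bars of 1 SE, from separate libraries. Contigs called on both days are red, and 22 of the 27 have negative values on both days.

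How many members passed depended on single libraries and on the tool. At 2 days the 10 calls became 5 without replicate 3 of stems and 5 without replicate 2 of petioles, while the share of all tested contigs called was 11.9% in both fits. The members' median log2 difference in these fits was -1.28 and -1.01. At 1 day the 7 calls became 2, 1 and 1 without replicates 1, 2 and 3 of stems, and 3 and 2 without replicates 2 and 3 of petioles. The share of all tested contigs called in these 5 fits lay between 6.34% and 7.13%, and the members' median log2 difference between -0.86 and -0.81. Calls fell over all contigs too, and the members' median did not shrink at 1 day. At 1 day the members' share fell from 25.9% to 3.7% without replicate 2 or 3 of stems. That was below the 7.13% and 6.82% of all contigs there. In the other fits named at 1 day it was 7.41% or 11.1%, above the share of all contigs. At 2 days it was 18.5% in both fits, against 11.9%. Why the calls fell was not tested. No sign of a called difference turned in any of these fits. With limma-voom 18 members were called at 2 days and 14 at 1 day, and with DESeq2 15 and 12. Of all contigs limma-voom called 20% at 2 days and 13.1% at 1 day, and DESeq2 23.4% and 15.1%.

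Replicates of the members spread more than those of the average contig. The median SD of log2 CPM within a group was 0.566 in stems at 2 days, 0.356 in stems at 1 day, 0.421 in petioles at 2 days and 0.441 in petioles at 1 day, beside 0.270, 0.250, 0.323 and 0.366 over all tested contigs, most of which had other levels. In some libraries most members lay on the same side of their group mean. In replicate 2 of stems at 2 days 24 of 27 members lay above their group mean, and in replicate 2 of petioles at 2 days 21 did. In replicate 3 of petioles at 1 day 21 members lay above, and in replicate 3 of petioles at 2 days only 6. The median deviation of the members was 0.26, 0.32, 0.28 and -0.28 log2 units in these 4 libraries, while that of all tested contigs stayed between 0.00 and 0.01. In replicate 1 of petioles at 1 day 8 members lay above, with a median deviation of -0.21. These libraries were picked after their values were seen. How many of all tested contigs lay above their group mean was not counted.

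The second day under water was compared with the first in each tissue. No member passed in either tissue by edgeR, where 1.62% of all tested contigs did so in stems and 1.69% in petioles. At an unadjusted p under 0.05 edgeR gave 2 members in stems and 3 in petioles. Nothing is read from these counts, as no share of all tested contigs was taken. In stems the fitted difference, 2 days minus 1 day, was positive for 14 of 27 members, with a median of 0.03 on the log2 scale beside 0.00 over all tested contigs. In petioles 22 were positive and the median was 0.39, beside -0.02 over all. Of the 2832 other contigs called higher under water in all 4 comparisons, 1734 were positive in petioles and 1135 in stems. Of all 53919 tested contigs 25878 and 26569 were. The members' petiole median was 0.18, with 17 positive, without replicate 2 at 2 days and 0.25, with 21 positive, without replicate 1 at 1 day. In stems it lay between -0.07 and 0.12 with 1 library left out. The 3 libraries of petioles at 2 days lay above the 3 at 1 day for 6 members and below for 2, against 10.9% and 6.57% of all tested contigs. In stems both counts were 5, against 18.9% above and 7.7% below.

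In other fits 4 members passed a day comparison. Of all contigs with an adjusted p, DESeq2 called 5.19% in stems and 6.84% in petioles and limma-voom 2.61% and 1.56%. DESeq2 called 1 of 27 members (3.7%) in each tissue, a smaller share than that of all contigs. With limma-voom the members' shares were larger than those of all contigs, at 7.41% in stems and 3.7% in petioles. With 1 or 2 members called, no difference from all contigs is read from these shares. GEMC01029370.1 was higher in petioles at 2 days with DESeq2 (log2 difference 1.19, adjusted p = 0.02) and with limma-voom (1.18, adjusted p = 0.0047). By edgeR its log2 difference was 1.18 ± 0.51 (adjusted p = 0.25). In stems GEMC01031724.1 was lower at 2 days with DESeq2 and limma-voom, and GEMC01035728.1 with limma-voom. GEMC01058690.1 was higher in stems at 2 days in a fit to the submerged libraries alone with the replicate number as a block (log2 difference 2.06, edgeR adjusted p = 0.04), a fit that called 1.11% of all contigs.

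**Figure D5:**
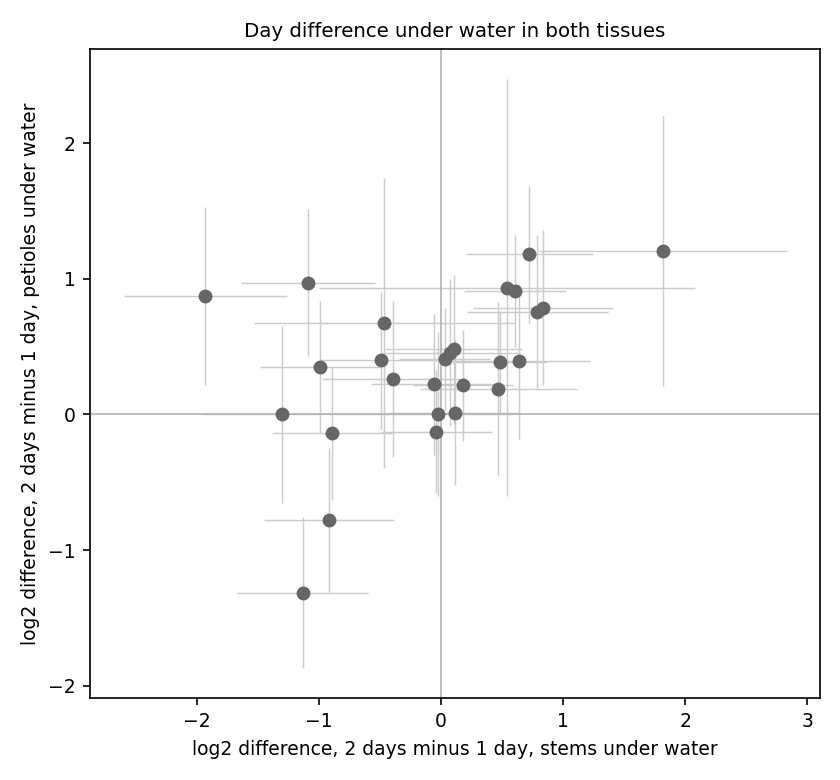
Fitted log2 difference, 2 days minus 1 day under water, of the 27 contigs in stems (x axis) and in petioles (y axis), with bars of 1 SE, from separate libraries. In petioles 22 contigs lie above 0 and in stems 14 do, and none passed the test in either tissue.

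The tissue by day interaction asked whether the difference between stems and petioles changed from the first to the second day. By edgeR it was found for 0 of the 27 members and 0 of all 53919 contigs (0%). At an unadjusted p under 0.05 edgeR gave 2 members, again with no share of all contigs, and nothing is read from this count. DESeq2 and limma-voom called 0 members as well, and of all contigs DESeq2 called 97 higher and 34 lower and limma-voom 0. The most negative value, picked after it was seen, was that of GEMC01031724.1 (1078 bases), with a log2 difference of -2.80 ± 0.94 (edgeR, adjusted p = 0.77). It stood at 1.43, 2.38 and 2.68 CPM in stems and 3.80, 8.31 and 2.51 CPM in petioles at 2 days. At 1 day it stood at 7.24, 8.47 and 6.93 CPM in stems and 2.98, 3.24 and 1.91 CPM in petioles. Stems were above petioles in every library at 1 day and overlapped with them at 2 days.

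Read sharing bears on how separate these contigs are. kallisto, the tool named in the submitters' processing notes, divides reads that fit several contigs among them, and this leaves fractions in the estimated counts. Counts were whole within 1e-06 in all 24 libraries for 10 members (37.0%), and the other 17 had fractions in at least 1 library. The 10 whole-count members had a median log2 difference, stem minus petiole, of -1.16 at 2 days and -1.1 at 1 day, and 3 of them were called on either day. For the 17 with fractions the medians were -1.36 and -0.60, and 7 were called. These are 30% and 41.2% of the members in each list, beside 21.6% of all tested contigs called on either day. Copies of near-identical sequence, if there are any, would make the separate values of these 17 uncertain.

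The numbering was also searched for abundant contigs near the members. Within 3 numbers, 13 of the 27 (48.1%) had a contig with at least 10 CPM under water, where 58.6% of all contigs had one. For contigs that in addition were far higher under water than in air the order of the shares was the other way. Within the same window, 5 of the 27 members (18.5%) had a contig with at least 10 CPM under water and at least 5 times its own level in air, where 2.68% of all contigs had one. The members were chosen for a like contrast, and contigs of 1 gene can stand side by side, so all contigs are not a like baseline. Several measures were counted, within 1 and within 3 numbers, and this share is a description only. GEMC01022793.1 stands 2 numbers before GEMC01022795.1 (2327 bases), which had 142 to 579 CPM in the 12 submerged libraries, against 0.97 to 2.62 CPM in the 12 air libraries. The member held 0.113% to 2.15% of that level under water and had no count in air. GEMC01040794.1 (1352 bases) likewise held 0.41% to 4.30% of the level of GEMC01040793.1 (1104 bases), which had 96.8 to 338 CPM under water, against 11.2 to 20.1 CPM in air.

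The other 3 such members were at larger shares of CPM, which does not correct for length. Each is shorter than its neighbour, so its share per base would be higher. GEMC01022641.1 (345 bases) held 6.16% to 12.3% of the submerged CPM of GEMC01022642.1 (2199 bases). GEMC01029614.1 (334 bases) held 1.85% to 5.80% of that of GEMC01029613.1 (2800 bases). GEMC01036659.1 (565 bases) held 5.98% to 14.2% of that of GEMC01036661.1 (1271 bases). Counts were fractional for the first of these 3 and whole for the other 2. These 5 pairs were set side by side after their values were seen. The part that shared reads or shared genes have in the members' pattern was not tested.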

How the data were processed

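Transcript levels were measured by RNA sequencing of 24 watercress libraries. Per the labels' protocols, messenger RNA was made into libraries that do not keep the strand and read in pairs of 100 bp, so transcripts and antisense transcripts cannot be told apart. The tools named in the submitters' processing notes are kallisto, edgeR and limma. No version is given there, and the transcriptome assembly is not given in the sources used here. The authors deposited estimated counts and TPM for 80741 contigs per library, with length and effective length, per the file headers. The length columns are other values in bases, as deposited.

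The members and lists were chosen with earlier results of these data known. Estimated counts were rounded and filtered (filterByExpr by group, minimum count 10, minimum total 15), which left 53919 contigs, and scaled by TMM. edgeR 4.0.16 fitted 8 group means (glmQLFit, glmQLFTest), and p-values were two-sided and adjusted over all tested contigs. SE came from the F statistic. CPM used library totals. limma 3.58.1 and DESeq2 1.42.0 gave alternatives, and the edgeR script was tested on simulated data. Replicates differed beyond sampling noise (chi-square per degree of freedom 12.9 to 54.5). Named by rule were the 2 members with the highest lowest submerged group and, per contrast, at most 2 called members in each direction. No gene list was used, since identifiers carry no names, and no sequences were printed. PCR copies were not marked, so depth limits cover counting error only.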

Additional observations from a re-analysis of the deposited data

How the results depend on the processing

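The number of members depended on the thresholds of the rule. It was 27 as chosen, 10 with an air maximum of 0.1 CPM, 92 with 0.5 CPM, 65 with a submerged minimum of 0.5 CPM and 10 with 2 CPM. TPM in place of CPM gave 30 contigs, of which 9 were shared, and TMM-scaled totals gave 24, all shared. Leaving out 1 replicate number gave 25 to 26. The median summed level under water was 98.3 CPM and 282 TPM. Members that differed between stems and petioles numbered 10 at 2 days and 7 at 1 day, beside 18.7% and 10.9% of all tested contigs. At 2 days the count of members was 15 in the submerged libraries alone, 13 there with the replicate block and 15 with DESeq2. These fits called 17.8%, 16.2% and 23.4% of all contigs. The count at 2 days was 18 with limma-voom, which called 20% of all contigs, and 6 without the 4 members of neighbouring numbers. At 1 day it was 11 in the submerged libraries alone, 11 there with the replicate block, 12 with DESeq2, 14 with limma-voom and 3 without those 4. Of all contigs, the submerged libraries alone called 10.3%, the block there 9.16%, DESeq2 15.1% and limma-voom 13.1%. Leaving out those 4 members, and adding the block to the submerged fit, were chosen after seeing the data. Without 1 library the count of members lay between 5 and 9 at 2 days and between 1 and 7 at 1 day. Those fits called 11.9% to 14.6% of all contigs at 2 days and 6.34% to 15.5% at 1 day. Where only 1 member (3.7%) was called at 1 day, the share of all contigs was higher, at 7.13% and 6.82%. Of the 17 calls 5 held with any 1 library left out, and no called difference reversed in any fit run. For 2 days minus 1 day, with 0 members, DESeq2 called 1 in stems, limma-voom 2 and the submerged libraries with the replicate block 1, and DESeq2 and limma-voom called 1 each in petioles. The cause of these shifts was not tested. With library totals alone the median of all tested contigs at 2 days moved to 0.16 (stem minus petiole), and that of the members to -1.06. The replicate block in the fit to all libraries left 10 and 7 calls of members at 2 days and 1 day, beside 19.3% and 11.1% of all contigs. Whether the numbers pair the samples could not be settled, as correlations of same-numbered deviations were small and of either sign, between -0.038 and 0.07. Of 3 pairs, 2 correlated best with their own number between tissues at 2 days, 3 at 1 day, and 2 and 1 between days in stems and in petioles. Low counts in air limit any statement below about 0.1 CPM.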
